A study of Mus musculus with 46 samples.

Results

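The 5 genes described here belong to the antibody-making branch of the B cell lineage. They are Ighm, Jchain, Cd79a, Cd79b and Ms4a1. They were chosen by gene symbol, and the choice was made because a few old livers stood far above the other arrays in immunoglobulin genes, so the difference between old and young is given below as a description, with no test. By the platform annotation, 21 of the 12422 probe sets tested carried 1 of these symbols alone, and 5 of the 8251 genes named on the array were covered. Ighm had 16 probe sets, Ms4a1 had 2, and Jchain, Cd79a and Cd79b had 1 each. Where a gene had several, the one with the highest mean over all arrays is called its lead probe set. It was 93583_s_at for Ighm and 104173_at for Ms4a1.

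The RNA came from whole liver of male mice of the CB6F1 hybrid, and each of its 46 arrays measured 1 RNA sample. Young mice were 5 to 6 months old and were supplied by Jackson Laboratories, and old mice were 25 to 27 months old and came from the National Institute on Aging, so age and supplier cannot be told apart. Livers were taken at 0 h without an operation, or at 0.5, 1, 2 or 4 h after partial hepatectomy (PH), in which 70% of the liver was removed, or after sham surgery. The operations were done under injected avertin and inhaled isoflurane. In each age there were 3 arrays at 0 h, 3 at each time after PH and 2 at each time after sham surgery, which makes 18 groups. The labels call the arrays of a group replicates and name no animal for each. A p-value below therefore sets a difference of means only against the spread of such arrays, and part of that spread may be technical. Unless stated otherwise, that spread was estimated over all 18 groups together. Values are on the log2 scale, where a difference of 1 is 2-fold, and the number of arrays limits their precision.

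In the immune system, a resting B cell carries its antibody on its surface. Ighm encodes the heavy-chain constant region of IgM, Cd79a and Cd79b encode the signalling chains that sit beside surface antibody in the B cell receptor, and Ms4a1 encodes CD20, a surface protein of mature B cells. When a B cell becomes a plasma cell it secretes its antibody in large amounts, raises the J chain that Jchain encodes and that joins IgM and IgA into polymers, and turns down CD20 and other surface proteins. The liver holds few such cells among its hepatocytes, and hepatocytes take part by carrying polymeric IgA into bile through the receptor that Pigr encodes. In bulk tissue, fewer cells of a type and less RNA per cell cannot be told apart.

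All 5 genes were found in the RefSeq gene table of GRCm38.p6. Ighm lies at chr12:113418826-113422730, where it is annotated as an immunoglobulin constant region. The other genes are annotated as protein coding: Jchain at chr5:88519809-88527897, Cd79a at chr7:24897497-24901858, Cd79b at chr11:106311341-106314562 and Ms4a1 at chr19:11249679-11266149. The deposited values carry no positions for the probe sets, so which exon each one reads is not given here. The 250 bases before the annotated start are shown for 1 gene of each pattern found below, Jchain (chr5:88527898-88528147, minus strand), which varied with Ighm, and Cd79a (chr7:24897247-24897496, plus strand), which varied with Cd79b. Both are written 5′ to 3′ on the gene's own strand, and the capitals in Cd79a mark a match to the PU box core on the opposite strand.
Jchain: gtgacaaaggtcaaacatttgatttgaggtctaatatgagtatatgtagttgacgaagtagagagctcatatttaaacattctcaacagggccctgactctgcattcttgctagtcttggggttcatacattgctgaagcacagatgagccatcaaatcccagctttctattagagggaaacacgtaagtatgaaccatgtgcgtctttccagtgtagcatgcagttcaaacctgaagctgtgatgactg
Cd79a: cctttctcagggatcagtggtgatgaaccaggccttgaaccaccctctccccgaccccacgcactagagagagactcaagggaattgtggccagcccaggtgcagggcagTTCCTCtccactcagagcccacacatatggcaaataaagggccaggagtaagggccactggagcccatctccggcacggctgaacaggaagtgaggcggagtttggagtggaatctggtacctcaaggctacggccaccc
The search covered both strands for the octamer ATGCAAAT, the EBF motif (TCCC and GGGA around 2 unspecified bases), the PU box core GAGGAA and the TATA box TATAAA. Among 32851 promoter windows of the same 250 bases, 1.60% held the octamer, 0.779% the EBF motif, 23.3% the PU box core and 12.4% the TATA box. In Cd79a the PU box core lay from -140 to -135 relative to the start and no other match was found. These letters were not found in the Jchain window. A match is a description of the letters and not a binding site.

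Ighm was higher in every old array than in any young array. In the lead probe set the 23 young arrays ran from 7.29 to 8.21 with a median of 7.89, and the 23 old arrays from 8.43 to 12.94 with a median of 9.03. At 0 h the young arrays read 7.77, 8.13 and 7.81, and the old arrays read 10.47, 8.70 and 9.0. The first old array stood apart from the rest, and the ages did not overlap. At 0.5 h after PH the values were 7.35, 7.84 and 7.77 in young and 9.37, 8.59 and 8.94 in old liver. At 1 h after PH they were 7.96, 7.53 and 7.94 in young and 9.40, 9.22 and 9.43 in old liver. These were the old PH arrays closest to each other, with an SD of 0.12 (n = 3). At 2 h after PH the young arrays read 7.29, 7.68 and 7.47, and the old arrays 9.94, 9.23 and 11.80. At 4 h after PH they read 8.21, 7.98 and 7.73 in young and 8.68, 8.66 and 12.94 in old liver. Replicate 3 was far above the other arrays in both of these old groups, and the group SDs were 1.33 and 2.46 (n = 3 each).

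Sham-operated livers showed the same order of the ages. At 0.5 h Ighm read 7.89 and 8.04 in young and 10.01 and 9.03 in old sham liver. At 1 h the values were 8.12 and 8.09 against 8.82 and 8.48, and at 2 h they were 7.90 and 8.17 against 8.70 and 8.81. At 4 h young sham liver read 8.12 and 7.87, and old sham liver 9.13 and 8.43. At none of the 4 times did a young sham array reach an old one. Over the 9 conditions of operation and time, every old array was above every young array of its condition in 9, a pattern that 0.169% of the 12422 probe sets had. Because the gene was chosen for its old arrays, nothing is read from that share.

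The height of single old arrays differed widely. Against the median of the young arrays, old PH 4 h replicate 3 was 33.0-fold higher and old PH 2 h replicate 3 was 15.0-fold higher. The next highest were old 0 h replicate 1 at 5.98-fold, old sham 0.5 h replicate 1 at 4.33-fold and old PH 2 h replicate 1 at 4.13-fold. The lowest old array was 1.45-fold above the young median. Old arrays spanned 4.51 and young arrays 0.914 on the log2 scale. Without the 2 highest arrays, the remaining 21 old arrays ended at 10.47 and had an SD of 0.53, against 1.09 with all 23.

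**Figure D1:**
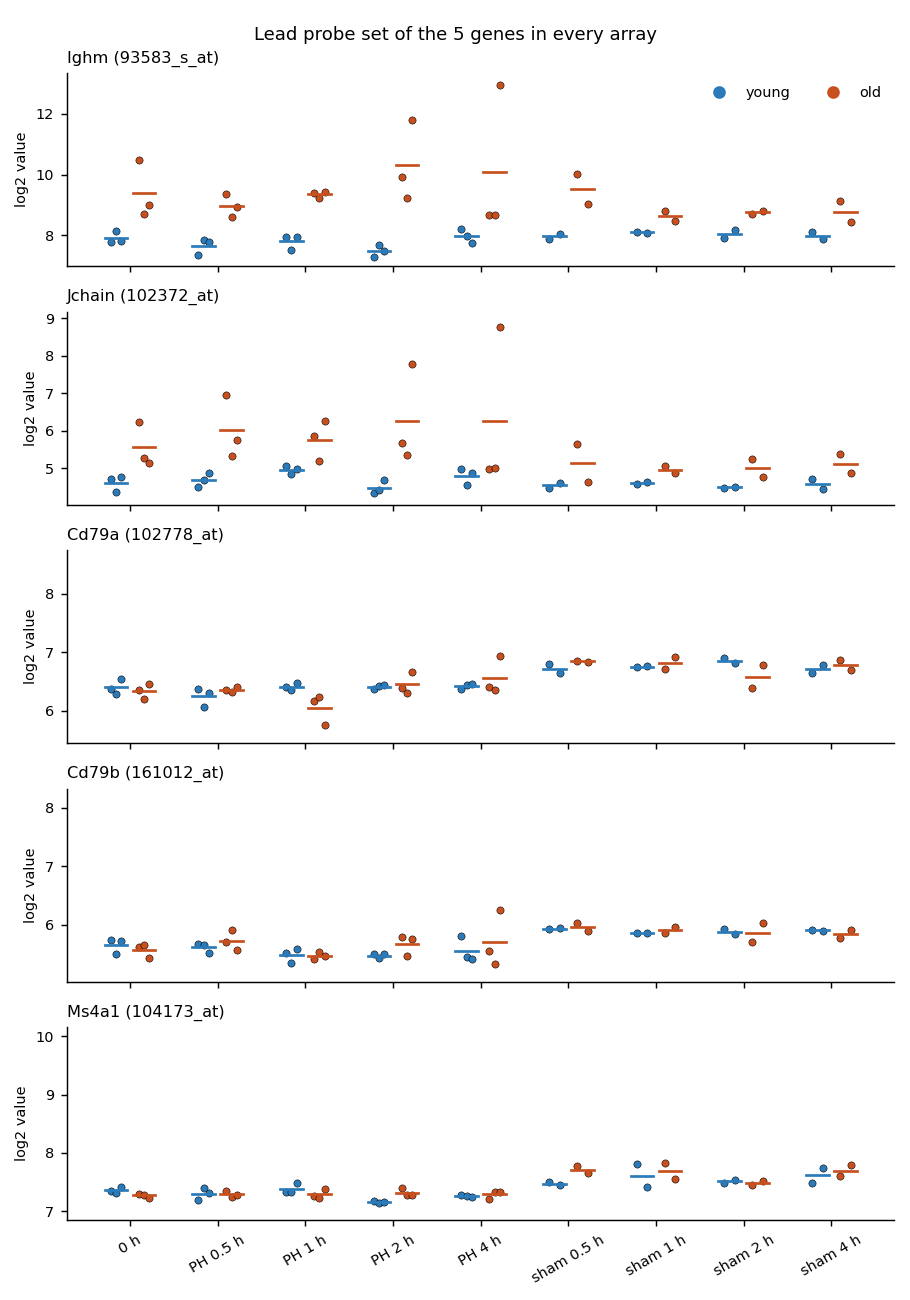
Log2 value of the lead probe set of each gene (vertical axis) in every array, by operation and time (horizontal axis). Points are arrays, short bars are group means, blue is young and orange is old. In Ighm all 23 old points lie above the 23 young points and 2 old PH points reach 11.80 and 12.94, in Jchain the same 2 arrays are highest, and in Cd79a, Cd79b and Ms4a1 both ages overlap.

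The mean difference between old and young Ighm was 1.44 ± 0.23 (log2 difference ± standard error, 2.70-fold) over the 9 conditions. It was 1.95 ± 0.31 over the PH times, 0.90 ± 0.38 over the sham times and 1.49 ± 0.62 at 0 h. By time after PH it was 1.31, 1.54, 2.84 and 2.12 (± 0.62 each), and after sham surgery 1.55, 0.55, 0.72 and 0.79 (± 0.76 each). The standard errors are wide because the fit uses 1 spread for all 18 groups, and the spread of Ighm lay mostly in old groups: SDs within young groups were 0.02 to 0.27. Without old PH 2 h replicate 3 and old PH 4 h replicate 3 the mean difference was 1.19 over all conditions and 1.41 over the PH times. Single arrays set some of the values by time: the difference at 4 h after PH was 0.70 without old PH 4 h replicate 3, that at 0 h was 0.95 without old 0 h replicate 1, and that at 4 h after sham surgery was 0.44 without old sham 4 h replicate 1. When the 18 group means were put in order, all 9 old groups ranked above all 9 young groups, from old PH 2 h (10.33 ± 1.33, SD, n = 3) and old PH 4 h (10.09 ± 2.46) down to old sham 1 h (8.65 ± 0.24, n = 2), then from young sham 1 h (8.10 ± 0.02, n = 2) to young PH 2 h (7.48 ± 0.20, n = 3). None of the 17 pairs of neighbours in this order differed by more than the SD within groups, which was 0.83 over all 18.

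Jchain followed Ighm. Its young arrays ran from 4.33 to 5.04 with a median of 4.64, and its old arrays from 4.62 to 8.77 with a median of 5.32. At 0 h young liver read 4.70, 4.37 and 4.75, and old liver 6.24, 5.27 and 5.15. After PH, old liver read 6.95, 5.32 and 5.75 at 0.5 h, and 5.85, 5.19 and 6.25 at 1 h. It read 5.67, 5.36 and 7.78 at 2 h, and 4.98, 5.01 and 8.77 at 4 h. The highest old arrays were thus the same replicate 3 of 2 h and of 4 h that led Ighm. Young PH arrays read 4.5, 4.68 and 4.87 at 0.5 h and 5.04, 4.83 and 4.97 at 1 h, then 4.33, 4.43 and 4.68 at 2 h and 4.98, 4.56 and 4.85 at 4 h. At 4 h the lowest old PH array, 4.98, was level with the highest young one.

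In sham liver Jchain read 5.65 and 4.62 (old) against 4.46 and 4.61 (young) at 0.5 h. At 1 h it read 5.05 and 4.86 against 4.57 and 4.64, at 2 h 5.23 and 4.77 against 4.47 and 4.5, and at 4 h 5.36 and 4.86 against 4.72 and 4.45. Of the 23 old arrays 17 exceeded every young array, and in 8 of 9 conditions the old arrays were all above the young ones. In sham liver at 0.5 h the margin was narrow, 4.62 against 4.61. Of all probe sets, 2.13% did so in 5 or more conditions, which is a looser threshold, and the share for 8 or more was not computed. Because Jchain was chosen for its old arrays, nothing is read from that share. The old minus young difference was 0.93 ± 0.22 (1.9-fold) over all conditions, 1.35 ± 0.29 over the PH times, 0.50 ± 0.36 over the sham times and 0.95 ± 0.58 at 0 h. Over all conditions it was 0.70 without the 2 highest old arrays, and at 0 h it was 0.61 without old 0 h replicate 1. The old group means from old PH 2 h (6.27 ± 1.32, SD, n = 3) to old sham 1 h (4.96 ± 0.13, n = 2) filled the first 9 places of the order. No neighbouring pair of the 17 differed beyond its spread, including old sham 1 h and the highest young group, young PH 1 h (4.95 ± 0.11, n = 3).

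Over the 46 arrays Ighm and Jchain had a Pearson r of 0.912 and a Spearman rho of 0.796, given as a description since these arrays share groups, operation and processing. Without the 2 highest arrays r was 0.792. Within the 23 young arrays it was 0.166. Of the 5 highest arrays of each gene, 3 were shared. They parted at old PH 0.5 h replicate 1, where Jchain was the third highest at 6.95 (4.97-fold over its young median) and Ighm, at 9.37, was not among its top 5. In old liver 7 PH arrays exceeded the highest sham array in Jchain and 2 did so in Ighm.

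**Figure D2:**
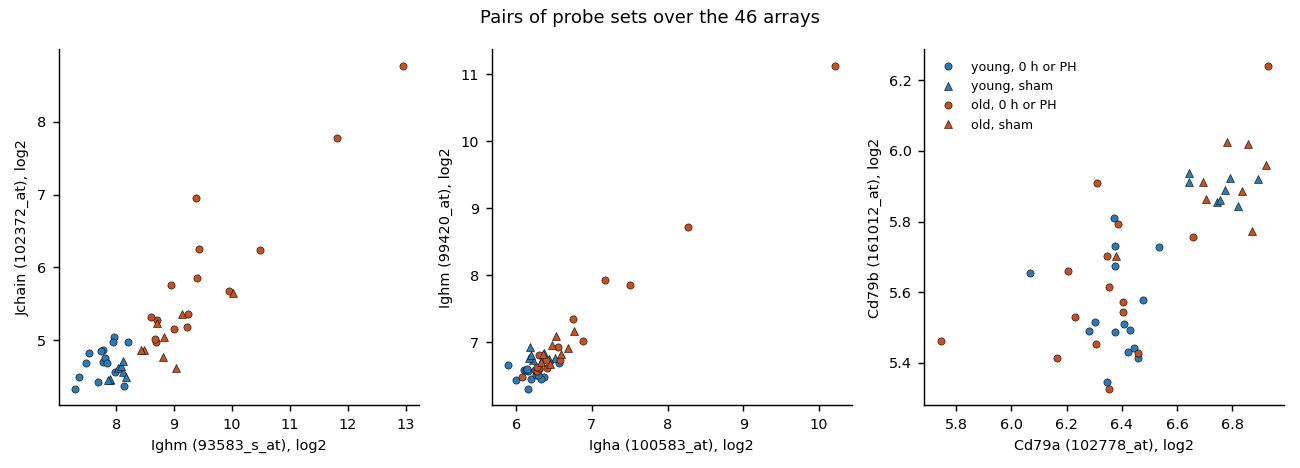
Pairs of probe sets over the 46 arrays, with log2 values on both axes, circles for 0 h or PH, triangles for sham, blue for young and orange for old. Left, Ighm against Jchain (r 0.912); middle, Igha against the Ighm probe set 99420_at (r 0.973), where 1 old array lies at 10.22 and 11.13; right, Cd79a against Cd79b (r 0.724), where most sham arrays lie towards the upper right.

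The 16 Ighm probe sets did not report the same thing. Of the 15 beside the lead, 7 varied with it, with r between 0.666 and 0.864 and rho between 0.28 and 0.70. All 7 had their highest array among the old ones, and in 6 it was old PH 4 h replicate 3. Their old minus young differences ran from 0.12 to 0.78, all smaller than that of the lead. Probe set 101870_at had the highest of them, 0.78 ± 0.24, and was highest in old PH 2 h replicate 3 at 9.30, before old PH 4 h replicate 3 at 9.09. Probe set 93584_at differed by 0.41 ± 0.12, and 13 of its 23 old arrays exceeded every young array. In 5 of the 7 the identifier carries a suffix for probes shared between transcripts, as does that of the lead, so these values may hold signal from related immunoglobulin transcripts. By likeness over the 46 arrays, the closest genes to these 7 were all other immunoglobulin variable segments, among them Ighv1-54 (r 0.933 with 100362_f_at), Igkv4-70 (r 0.936 with 100377_f_at) and Igkv4-91 (r 0.919 with 101871_f_at).

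Another 7 Ighm probe sets did not follow the lead. Their r to the lead lay between -0.13 and 0.11, their old minus young differences between -0.04 and 0.05, and their full range over all arrays between 0.34 and 1.24. None was highest in old PH 4 h replicate 3, and none was closest to an immunoglobulin gene. The most variable of them, 97568_at, was closest to Spint2, which encodes a serine protease inhibitor (r 0.753).

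**Figure D3:**
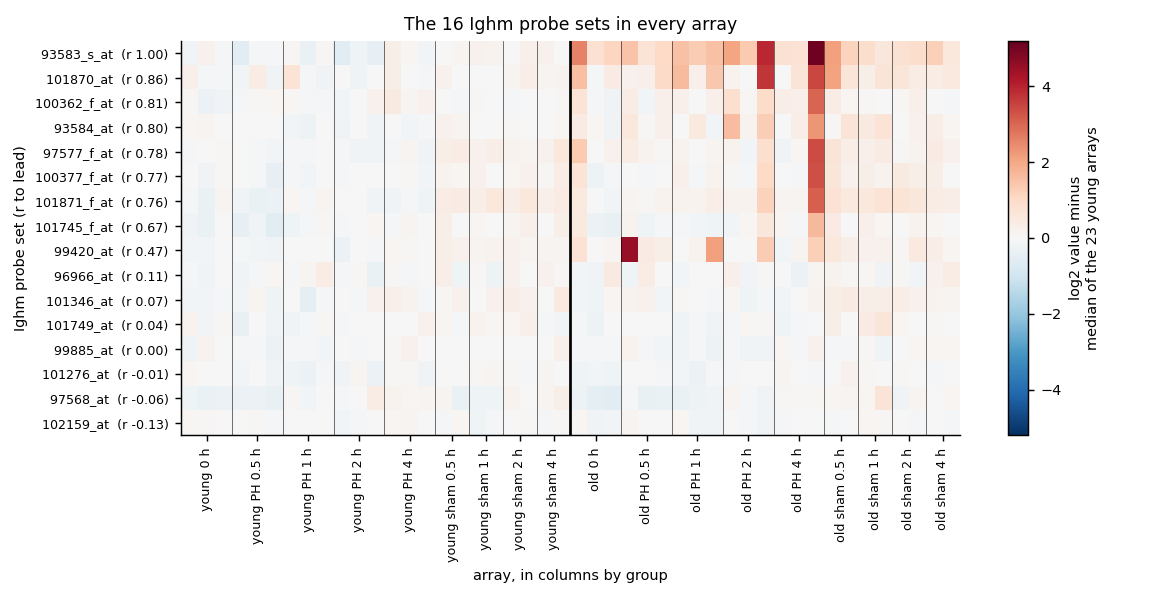
The 16 Ighm probe sets (rows, ordered by r to the lead) in the 46 arrays (columns, by group, young to the left of the heavy line). Colour is the log2 value minus the median of the 23 young arrays of that probe set, red for higher and blue for lower; the columns of old PH 2 h replicate 3 and old PH 4 h replicate 3 are red in the upper rows, and 99420_at is reddest at old PH 0.5 h replicate 1 and paler at those 2.

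One Ighm probe set, 99420_at, stood apart from both sets. Its young arrays ran from 6.30 to 6.93 and its old arrays from 6.48 to 11.13. Old PH 0.5 h replicate 1 was at 11.13, which is 23-fold over the young median, and old PH 1 h replicate 3 followed at 8.73. The other arrays of old PH 0.5 h read 7.03 and 6.93. Old PH 4 h replicate 3, the highest array of the lead probe set, read 7.85 here. Its r to the lead was 0.468 and its r to Igha, the constant region of IgA, was 0.973, or 0.920 without the highest array. By rank the values were closer, with a rho of 0.661 to the lead and 0.731 to Igha. Igha itself read 10.22 and 8.27 in the same 2 arrays, against 5.89 to 6.56 in young liver. By its symbol this probe set is Ighm, and Igha was the gene with the highest r to it.

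Over all 21 probe sets of the 5 genes, the median old minus young difference was 0.065 and 16 were positive, against a median of -0.014 and 41.6% positive over all probe sets tested. Old PH 4 h replicate 3 was the highest of the 46 arrays in 11 of the 21. Because the genes were chosen for their old arrays, nothing is read from these counts. The 21 are also not independent, since 16 of them are probe sets of Ighm.

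In the difference between the ages, the 3 B cell surface genes did not follow Ighm and Jchain. Cd79a ran from 6.07 to 6.89 in young and from 5.74 to 6.93 in old arrays, and its old minus young difference was -0.02 ± 0.05. Cd79b ran from 5.35 to 5.94 in young and from 5.33 to 6.24 in old arrays, with a difference of 0.04 ± 0.05. Ms4a1 ran from 7.15 to 7.81 and from 7.21 to 7.83, with a difference of 0.04 ± 0.03 in its lead and 0.06 ± 0.04 in its other probe set, 99446_at. All 3 genes thus overlapped between the ages across nearly their whole range. Over the 46 arrays their r to Ighm were 0.133 for Cd79a, 0.308 for Cd79b and 0.029 for Ms4a1. Other measures gave other values. Within the 23 young arrays these r were 0.384, 0.519 and 0.559, above the 0.166 of Ighm and Jchain. As deviations from the group means they were 0.555, 0.641 and 0.137, against 0.939 for Ighm and Jchain. Between themselves r over the 46 arrays was 0.724 for Cd79a and Cd79b, 0.611 for Cd79a and Ms4a1, and 0.621 for Cd79b and Ms4a1. As deviations from the group means these r were 0.496, -0.134 and 0.164. Ms4a1 thus varied with Cd79a and Cd79b mainly between groups.

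In 1 array the surface genes stood high as well. Old PH 4 h replicate 3 was the highest of all arrays in Cd79a, at 6.93, in Cd79b, at 6.24, and in 99446_at of Ms4a1, at 7.04. In the lead probe set of Ms4a1 it read 7.34, inside the range of the other PH arrays. The other array with high Ighm, old PH 2 h replicate 3, read 6.66 in Cd79a, 5.76 in Cd79b and 7.28 in Ms4a1. The lowest Cd79a value, 5.74, was in old PH 1 h replicate 3. Set against the 33.0-fold of Ighm, old PH 4 h replicate 3 lay 1.40-fold over the young median in Cd79a and 1.48-fold in Cd79b.

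In most of these probe sets the sham arrays lay above the arrays at 0 h or after PH. In young liver the 8 sham arrays of Cd79a ran from 6.64 to 6.89 with a median of 6.76, and the 15 arrays at 0 h or after PH from 6.07 to 6.53 with a median of 6.38, so the groups did not overlap. In Cd79b the young sham arrays ran from 5.84 to 5.94 (median 5.90) and the others from 5.35 to 5.81 (median 5.51), again without overlap. In Ms4a1 they ran from 7.41 to 7.81 (median 7.49) and from 7.15 to 7.49 (median 7.31), with a small overlap. Old liver had a like order in Ms4a1, where 8 sham arrays at 7.46 to 7.83 lay above 15 others at 7.21 to 7.41. In old Cd79a the sham arrays, 6.38 to 6.92, overlapped the others, 5.74 to 6.93, and in old Cd79b they did so as well, at 5.70 to 6.03 against 5.33 to 6.24. The other Ms4a1 probe set, 99446_at, did not show it in old liver, where sham arrays had a mean of 6.56 ± 0.06 (SD, n = 8) and PH arrays one of 6.62 ± 0.18 (n = 12). In the order of the 18 group means the first place went to young sham 2 h in Cd79a (6.86 ± 0.05, SD, n = 2) and to old sham 0.5 h in Cd79b (5.95 ± 0.09, n = 2) and Ms4a1 (7.71 ± 0.08, n = 2). The last place went to old PH 1 h in Cd79a (6.05 ± 0.26, n = 3) and Cd79b (5.47 ± 0.06, n = 3) and to young PH 2 h in Ms4a1 (7.16 ± 0.01, n = 3). Of the 17 neighbouring pairs, 1 differed by more than the SD within groups in Cd79a and 1 in Ms4a1, both at the bottom of the order, and none in Cd79b.

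The choice of genes did not use the young comparisons, which set liver removal against sham surgery and each against unoperated liver. All sham arrays also stood apart from the others across the whole table, as described below. Over all times, young PH liver was lower than young sham liver by limma in 6 of the 21 probe sets, where 41.9% of all probe sets differed and 24.0% of all probe sets were lower. The members' share is thus near the background and not a result about them as a set. The PH minus sham difference was -0.28 ± 0.05 in Ms4a1 (log2 difference ± standard error, 1.21-fold; adjusted p = 2.59e-05), -0.38 ± 0.07 in Cd79a (1.31-fold; adjusted p = 6.17e-05) and -0.36 ± 0.08 in Cd79b (1.29-fold; adjusted p = 0.000438), over 12 PH and 8 sham arrays. The unoperated arrays lay nearer to PH than to sham: in Cd79a the means were 6.40 ± 0.13 at 0 h (SD, n = 3), 6.37 ± 0.11 after PH (n = 12) and 6.76 ± 0.08 after sham surgery (n = 8). These 3 calls held without any single array. The other Ms4a1 probe set, 99446_at, differed by -0.11 ± 0.06 and did not pass (adjusted p = 0.127).

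Of the Ighm probe sets, 101276_at (-0.15 ± 0.05, adjusted p = 0.0143), 101346_at (-0.22 ± 0.07, adjusted p = 0.0151) and 101871_f_at (-0.53 ± 0.21, adjusted p = 0.0444) were lower after PH. The first was lost without young sham 2 h replicate 1 (adjusted p = 0.0510), and the second without young sham 1 h replicate 2 (0.0529) or young sham 4 h replicate 2 (0.0879). The call of 101871_f_at was lost on leaving out any 1 of the 20 arrays (adjusted p 0.0502 to 0.0877). The lead of Ighm differed by -0.29 ± 0.35 (adjusted p = 0.524) and Jchain by 0.17 ± 0.33 (adjusted p = 0.699). When the young PH and sham groups were fitted alone, so that the spread of the old groups no longer entered, Ighm passed at -0.29 ± 0.08 (adjusted p = 0.00786) and Jchain at 0.17 ± 0.07 (adjusted p = 0.0398). With the replicate number as a block in the fit of all groups the Jchain value turned to -0.049. In old liver, as a description, PH minus sham was 0.76 ± 0.35 in Ighm, which was 0.40 without old PH 4 h replicate 3 and 0.22 without the 2 highest arrays. It was 1.02 ± 0.33 in Jchain, or 0.52 without those 2, -0.40 ± 0.07 in Cd79a, -0.25 ± 0.08 in Cd79b and -0.35 ± 0.05 in Ms4a1.

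At single times few members passed. Against sham, PH was lower at 0.5 h in Cd79a alone (-0.47 ± 0.14, adjusted p = 0.0281; 1 of 21 against 10.8% of all probe sets). At 2 h Cd79a (-0.45 ± 0.14, adjusted p = 0.0378) and Ms4a1 (-0.36 ± 0.09, adjusted p = 0.0150) passed, 2 of 21 against 10.4%, and at 4 h Ms4a1 did (-0.36 ± 0.09, adjusted p = 0.0234), 1 of 21 against 4.85%. At 1 h none of 21 passed in limma after adjustment, against 9.88%, and 4 had an unadjusted p under 0.05. Cd79b lay between -0.31 and -0.41 (± 0.16) at the 4 times and passed at none of them, the closest being 2 h (adjusted p = 0.0818).

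These single-time calls rest on few arrays. The Cd79a call at 0.5 h was lost without young PH 0.5 h replicate 2 (adjusted p = 0.103) or replicate 3 (0.0618) and without young sham 0.5 h replicate 1 (0.301) or replicate 2 (0.0652), and with a spike-in covariate (0.0606). At 2 h it was lost without any 1 of the 5 arrays (adjusted p 0.0593 to 0.178). The Ms4a1 call at 2 h was lost without young sham 2 h replicate 1 (adjusted p = 0.0655) or replicate 2 (0.169), and at 4 h without young PH 4 h replicate 3 (0.0686) or young sham 4 h replicate 2 (0.406), and with the compared groups fitted alone (0.166).

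Against 0 h, PH changed no member at 0.5, 1 or 2 h after adjustment in limma, where 0.0403%, 0.572% and 3.99% of all probe sets passed; 1, 2 and 2 of the 21 had an unadjusted p under 0.05. At 4 h 1 of 21 passed against 7.66%. It was the Ighm probe set 97568_at, one of the 7 that did not follow the lead, which rose by 0.44 ± 0.12 (adjusted p = 0.0236), from 6.69 ± 0.06 to 7.13 ± 0.03 (SD, n = 3 each). The same probe set rose in sham liver at 4 h, by 0.54 ± 0.14 (adjusted p = 0.0111), where 10.8% of all probe sets passed and it was again the 1 member. The first of these calls was lost without young 0 h replicate 2 (adjusted p = 0.0907) or replicate 3 (0.0573) or young PH 4 h replicate 1 (0.0807) or replicate 3 (0.0546), and the second without young 0 h replicate 2 (0.0512) or young sham 4 h replicate 2 (0.167). Sham arrays were higher than 0 h arrays in Cd79a at 2 h, by 0.46 ± 0.14 (adjusted p = 0.0361; 1 of 21 against 8.83%), a call lost without young 0 h replicate 1 (adjusted p = 0.0887) or replicate 2 (0.164) or either sham array (0.189 and 0.168). At 0.5 and 1 h no member passed between sham and 0 h after adjustment in limma, against 1.49% and 3.12%, and 1 and 3 had an unadjusted p under 0.05.

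**Figure D4:**
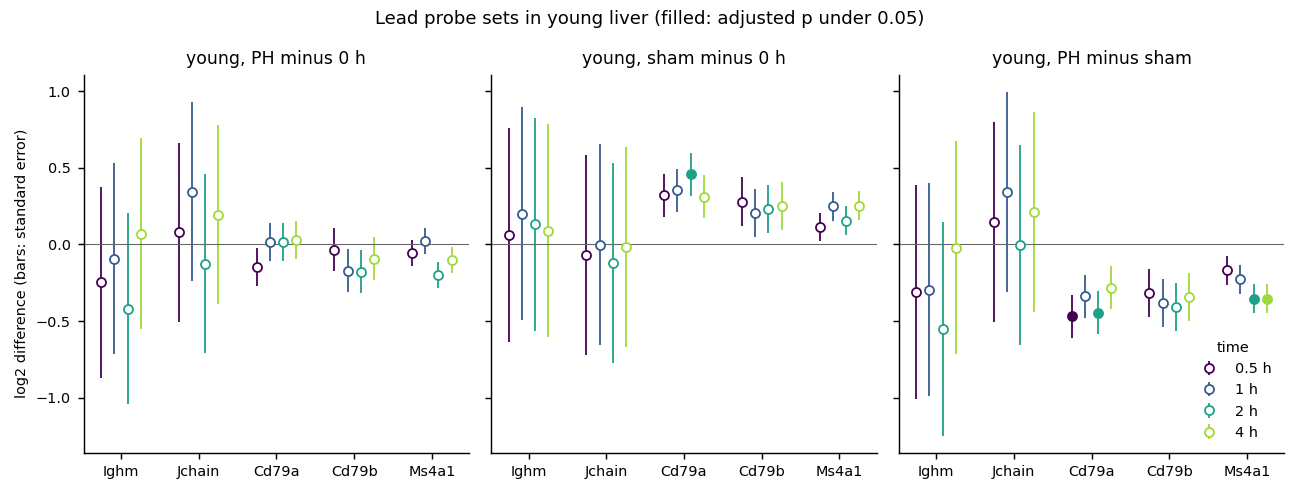
Log2 difference in young liver (vertical axis) of the lead probe set of each gene (horizontal axis), for PH minus 0 h, sham minus 0 h and PH minus sham, coloured by time. Bars are standard errors and filled points have an adjusted p under 0.05; the Cd79a, Cd79b and Ms4a1 points lie below 0 at all 4 times in the right panel, and the bars of Ighm and Jchain are wide because 1 spread was fitted to all 18 groups.

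The sham arrays differed from the rest across the whole table. On the first principal component of all probe sets, which held 26.8% of the variance, the 16 sham arrays scored at least 7.75 and the 30 others at most 6.27. The 3′ beta-actin control probe set had a median of 11.5 in sham arrays, 12.7 in PH arrays and 12.6 at 0 h. The part of these array-wide differences in the surface genes' values was not tested. The genes most like Cd79a over the 46 arrays were Cnga3 (r 0.818), Sh2d2a (0.817), Rcvrn (0.814), Aprt (0.813) and Ikzf2 (0.813). For Ms4a1 they were Fgf11 (0.852), Adcyap1r1 (0.848), Capn9 (0.805), Adam28 (0.782) and Cdca5 (0.780), and for Cd79b H2-DMb2 (0.781), Dusp2 (0.750), Gnrh1 (0.749), Ptgis (0.748) and Fut7 (0.747). None of these 15 genes was in the B lineage lists. The genes most like Ighm were Igkv6-23 (0.922), Jchain (0.912), Ighv1-54 (0.903), Igkv6-14 (0.897) and Igkv4-91 (0.876), and Jchain was closest to Igkv4-68 (0.937), Ighm, Igkv6-23 (0.892), Ighv1-54 (0.890) and Igkv6-14 (0.878). Over the 23 young arrays alone the closest gene to Ighm was Oxt (0.769) and that to Jchain was Zfp105 (0.745), and no immunoglobulin gene was among the first 5 of either.

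To place Ighm and Jchain in their lineage, 5 lists of other B lineage genes were compared between old and young over all conditions, where 8.93% of all probe sets passed, 5.02% higher and 3.90% lower in old. The lists were drawn up with earlier results of these data known and are no independent support. Among 25 other immunoglobulin genes 10 were higher in old liver and none lower, with a median difference of 0.162 against -0.014 for all probe sets. Igkv6-23, a kappa light-chain variable segment, differed most, by 2.69 ± 0.28 (adjusted p = 4.73e-08). Its young arrays ran from 5.71 to 7.66 and its old arrays from 7.76 to 12.64, so that all 23 old arrays were above every young one, as in Ighm. The kappa segments Igkv1-133 (0.76 ± 0.15, adjusted p = 0.00142), Igkv6-14 (0.77 ± 0.19, adjusted p = 0.00829) and Igkv10-96 (0.29 ± 0.07, adjusted p = 0.0105) followed. Of the 10, Ighv1-54 (0.59 ± 0.18, adjusted p = 0.0320) was a heavy-chain segment and the rest were kappa segments. All of the 10 but Igkv1-133 and Igkv4-68 were read by probe sets with a suffix for probes shared between transcripts. Their values may hold signal from related segments, so the 10 are not separate readings of single segments.

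Ighm itself was given no test between the ages, so it is not set against the other constant regions here. Of those, none passed over all conditions. Igha differed by 0.50 ± 0.19 (adjusted p = 0.0952), Ighg3 by 0.10 ± 0.11 (adjusted p = 0.607), Ighd, the constant region of the IgD of naive B cells, by -0.05 ± 0.03 (adjusted p = 0.282) and Iglc1 of the lambda chain by -0.10 ± 0.04 (adjusted p = 0.157). Single old arrays were high in Ighg3, which read 8.15 in old PH 2 h replicate 3 and in old PH 4 h replicate 3. It read 7.53 in old 0 h replicate 1, against 6.43 to 6.78 in young arrays. Its median was 6.55 in old and 6.62 in young arrays. Over the PH times alone Igha passed (0.86 ± 0.26, adjusted p = 0.0294), with 10 of the 25 genes higher and none lower, where 9.76% of all probe sets passed and 6.46% were higher. High immunoglobulin values in old arrays prompted the choice of genes. The calls, counts and p-values of immunoglobulin genes between the ages are therefore no independent support. The Igha value was 0.57 without old PH 0.5 h replicate 1, where the call held. The call was lost without old PH 1 h replicate 3 (adjusted p = 0.0776), old PH 2 h replicate 3 (0.0594), old PH 4 h replicate 3 (0.0603) or young PH 4 h replicate 2 (0.0502), and with the compared groups fitted alone (0.114). Over the sham times 1 gene of the B lineage passed, Igkv6-23 at 2.13 ± 0.47 (adjusted p = 0.0163), against 0.765%. That call was lost without old sham 0.5 h replicate 1 (adjusted p = 0.0870), young sham 4 h replicate 2 (0.0619) or old sham 4 h replicate 1 (0.0577). At 0 h none of the 74 B lineage genes passed in limma after adjustment, against 0.145%, and 7 had an unadjusted p under 0.05.

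Among 17 genes of the B cell receptor and surface, 2 were higher and 1 lower in old liver over all conditions, where 5.02% of all probe sets were higher and 3.90% lower. They were the adaptor Blnk (0.15 ± 0.04, adjusted p = 0.0171), Cd72 (0.29 ± 0.10, adjusted p = 0.0473) and the complement receptor Cr2 (-0.13 ± 0.04, adjusted p = 0.0393). Cd22 differed by -0.01 ± 0.04. Among 12 B cell transcription factors Spi1 was higher (0.13 ± 0.04, adjusted p = 0.0398) and Spib lower (-0.10 ± 0.03, adjusted p = 0.0477). Pou2af1, a coactivator of immunoglobulin gene transcription, differed by 0.20 ± 0.07 (adjusted p = 0.0873) over all conditions and passed over the PH times (0.41 ± 0.10, adjusted p = 0.00715). Over those times 3 of the 12 transcription factors were higher and none lower, where 6.46% of all probe sets were higher. The median difference of the list was -0.036 there, and 5 of the 12 were positive. Pou2af1 was highest in old PH 4 h replicate 3, at 5.45, against 3.88 to 4.66 in young liver. Of the calls just named, each of Cd72, Spib, Cr2 and Spi1 was lost in 20 to 33 of the 46 fits that left out 1 array, and Blnk in none. Of 8 pre-B cell genes, none passed after adjustment in limma and 2 had an unadjusted p under 0.05.

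Of 12 plasma cell genes, 1 passed, against 8.93% of all probe sets, so the count is near the background and not a result about the list. It was Sec11c, a subunit of the signal peptidase, at 0.10 ± 0.03 (adjusted p = 0.0267), a call lost in 4 of the 46 such fits. Xbp1, the transcription factor of secretory cells, differed by 0.25 ± 0.11 (adjusted p = 0.174) and Sdc1, which encodes the plasma cell surface protein CD138, by 0.12 ± 0.05 (adjusted p = 0.158), and hepatocytes express both genes as well. Prdm1 differed by 0.08 ± 0.05, Irf4 by -0.01 ± 0.05 and Tnfrsf17, the survival receptor BCMA, by -0.01 ± 0.04, and none of these 3 passed. The mean level of the 12 genes was 7.57 in old PH 4 h replicate 3 and 7.58 in old PH 2 h replicate 3, against 7.17 to 7.61 in young arrays. The 2 arrays ranked 3 and 2 of 46, within the young range, and were the highest of the old arrays. In the same 2 arrays the mean of the 25 other immunoglobulin genes was 7.67 and 7.0, against 5.86 to 6.16 in young and 6.16 to 7.67 in old arrays.

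**Figure D5:**
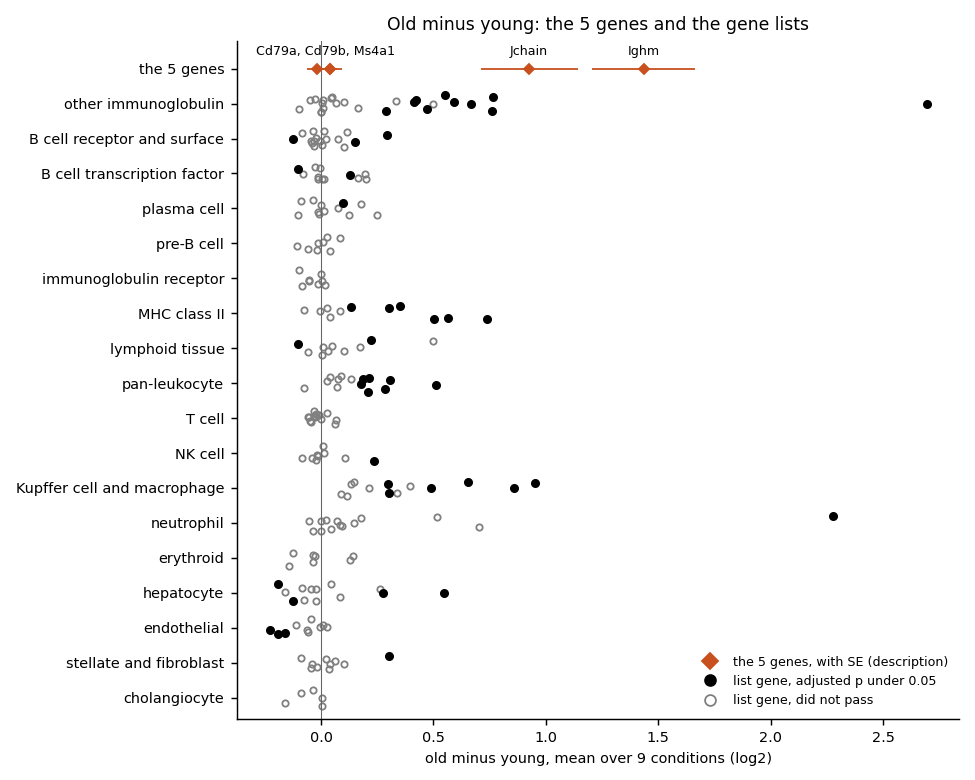
Old minus young log2 difference, mean of the 9 conditions (horizontal axis), for the 5 genes (orange diamonds with standard errors, as a description) and for every measured gene of 18 lists (rows; filled where the adjusted p was under 0.05, open where it was not). Ighm at 1.44 and Jchain at 0.93 lie apart from Cd79a, Cd79b and Ms4a1, and 10 other immunoglobulin genes, up to Igkv6-23 at 2.69, are filled to the right of 0.

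Other cell types of the liver were read with marker lists in the same comparison, where 5.02% of all probe sets were higher in old liver and 3.90% lower. In the T cell list 0 of 15 genes passed in limma after adjustment or at an unadjusted p under 0.05, and its mean level ran from 5.59 to 5.79 in young and from 5.41 to 5.88 in old arrays. The 2 arrays highest in Ighm were also placed by the mean level of each list among the 46 arrays. Old PH 4 h replicate 3 ranked 1 for the stellate and fibroblast list, 2 for the MHC class II, pan-leukocyte, lymphoid tissue and pre-B cell lists, and 3 for the T cell and the B cell receptor and surface lists. The same array ranked 6 for neutrophil, 8 for erythroid, 9 for both B cell transcription factor and NK cell, and 13 for immunoglobulin receptor. Its ranks were 14 for hepatocyte, 18 for endothelial and 42 for cholangiocyte. Old PH 2 h replicate 3 ranked 4 for MHC class II, 8 for pan-leukocyte, 9 for stellate and fibroblast, 27 for lymphoid tissue, 32 for B cell receptor and surface, 43 for pre-B cell and 45 for T cell. This array ranked 18 for erythroid, 19 for neutrophil, 27 for hepatocyte and 31 for endothelial. Its ranks were 37 for B cell transcription factor, 39 for cholangiocyte, 41 for immunoglobulin receptor and 44 for NK cell. The MHC class II list, of genes by which B cells, macrophages and dendritic cells present antigen, had 6 of 11 genes higher in old liver, led by H2-Aa (0.56 ± 0.09, adjusted p = 9.10e-05), and Cd74 differed by 0.74 ± 0.12 (adjusted p = 0.000161). In the pan-leukocyte list 7 of 14 were higher, with Cd53 at 0.51 ± 0.09 (adjusted p = 0.000156), while Ptprc differed by 0.14 ± 0.06 (adjusted p = 0.139). In the Kupffer cell and macrophage list 6 of 13 were higher, led by Mpeg1 at 0.86 ± 0.09 (adjusted p = 7.53e-08). In the 2 arrays highest in Ighm the Kupffer list stood at 7.51 (rank 7) and 7.30 (rank 15), and it was highest in old PH 1 h replicate 3 at 8.71. The part of these other cell types in the Ighm and Jchain difference was not tested.

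The lists of the remaining cell types had fewer genes higher in old liver, against the same 5.02% higher and 3.90% lower of all probe sets. There, 1 of 9 NK cell genes (Ccl5), 1 of 14 neutrophil genes (Lcn2, 2.28 ± 0.43, adjusted p = 0.000615) and 1 of 10 stellate and fibroblast genes (Dcn) were higher, and 3 of 10 endothelial genes were lower. The mean of the neutrophil list was highest in old PH 1 h, at 6.86 (6.20 to 7.76, n = 3) against 5.97 (5.83 to 6.23, n = 3) in young PH 1 h. Of 13 hepatocyte genes 2 were higher and 2 lower, and their mean level of 12.1 to 12.5 in every array fits the labelled tissue. In the lymphoid tissue list 1 of 10 was higher (Cxcl12) and 1 lower (Glycam1). No erythroid gene of 7 and no cholangiocyte gene of 5 passed in limma after adjustment, and 1 and 2 had an unadjusted p under 0.05. Among 8 immunoglobulin receptor genes none passed by either measure. Pigr differed by -0.08 ± 0.08 (adjusted p = 0.533) and ran from 12.02 to 12.89 in young and from 11.14 to 12.84 in old arrays.

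In young liver, PH against sham over all times, the B lineage lists had 3 of 74 genes higher and 19 lower, against 17.9% and 24.0% of all probe sets. The share that was lower is near the background and not a result about the lineage. All sham arrays also stood apart across the whole table, as described above. Lower were 8 of 17 receptor and surface genes, among them the chemokine receptor Cxcr5 (-0.63 ± 0.09, adjusted p = 1.20e-06) and Cd40 (-0.28 ± 0.06, adjusted p = 0.000996), and 4 of 12 transcription factors, among them Pax5 (-0.20 ± 0.05, adjusted p = 0.00134). In the receptor and surface list 1 gene was higher, and in the transcription factor list none was. Of the plasma cell genes Ell2 (1.05 ± 0.10, adjusted p = 6.03e-10) and Sdc1 (0.41 ± 0.08, adjusted p = 0.000195) were higher, and Cd27 (-0.47 ± 0.06, adjusted p = 2.32e-07) and Tnfrsf17 (-0.24 ± 0.07, adjusted p = 0.00321) lower. Among 25 other immunoglobulin genes 3 were lower and none higher. In the lists of other blood cells 5 of 15 T cell genes and 6 of 14 neutrophil genes were lower and none higher, 4 of 9 NK cell genes were lower and 1 higher, 3 of 14 pan-leukocyte genes were lower and 1 higher, and 1 of 7 erythroid genes was higher and none lower.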

How the data were processed

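Gene expression was measured on Affymetrix Murine Genome U74 version 2 arrays from biotinylated cRNA made from total RNA of whole liver. The authors deposited log2 values. RMA is named in the submitters' processing notes, and its version and the set of arrays it ran on are not given here. Medians of the 46 arrays were 6.22 to 6.33, and the values were used as they stand. Of 12488 probe sets, 66 controls were left out, and 10833 of the 12422 tested carried 1 symbol, 396 several and 1193 none.

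All arrays entered 1 model with a mean per group (limma 3.58.1, R 4.3.3; 28 residual and 5.089 prior degrees of freedom). A contrast passed where its Benjamini-Hochberg p over 12422 probe sets was under 0.05. The procedure was tested on simulated data. Correlations, levels and figures were computed in Python 3.11.15 (numpy 2.4.6, pandas 2.3.3, matplotlib 3.10.9).

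The members and gene lists were chosen with earlier results of these data known. The genes named were the 5 members, the 5 genes most like each, up to 4 passing genes of a list by adjusted p, up to 2 by mean level where none passed, and Pigr, Xbp1, Sdc1, Igha, Cd74 and Ptprc. Cxcl12, Glycam1, Ccl5, Lcn2 and Dcn are named because their counts were 5 or less. Ighd, Ighg3, Iglc1, Cd22, Pou2af1, Prdm1, Irf4, Tnfrsf17 and Igkv4-70 were named after their values were seen. Igkc was not analysed here. Alternatives were array centring, a filter on the dimmest 25% of probe sets, trend and robust moderation, the replicate number as a block, 1 probe set per gene, cross-hybridisation suffixes left out, array weights, a spike-in covariate, the compared groups alone and each array left out.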

Additional observations from a re-analysis of the deposited data

Results flagged for a closer look

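In 4 comparisons every array of the first group named lay on one side of the mean of the second group in young mice and on the opposite side in old mice, and the difference between the ages was not tested. In the 2 comparisons with 0 h the single arrays of the groups overlapped in at least 1 age, and in the 2 with sham they did not overlap. Of these, 3 concern the lead Ighm probe set, 93583_s_at. Sham liver at 1 h against 0 h changed by 0.20 in young and by -0.74 in old mice, a difference of -0.942 on the log2 scale. PH against sham at 1 h changed by -0.29 in young and by 0.70 in old mice, a difference of 0.994. PH against sham at 2 h changed by -0.55 in young and by 1.57 in old mice, a difference of 2.12, and old PH 2 h replicate 3 is among its arrays. The other is Ms4a1 (104173_at), whose change from 0 h to 2 h after PH was -0.20 in young and 0.05 in old mice, a difference of 0.248.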

How the results depend on the processing

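The lower Cd79a, Cd79b and Ms4a1 in young PH against young sham over all times held in every alternative run. The count of members called there was 6 of 21, 3 with 1 probe set per gene, 13 with the compared groups fitted alone and 4 to 5 without single arrays. The share of all probe sets called in the fit of the compared groups alone is not given here. Counts at single times moved. With array weights they were 1, 5 and 1 at 0.5 h (PH against 0 h, PH against sham, sham against 0 h), 3 and 3 at 1 h (PH against sham, sham against 0 h), 1 and 3 at 2 h (PH and sham against 0 h) and 5 at 4 h (sham against 0 h). The counts over all probe sets rose with array weights in each of these comparisons. At 0.5 h they went from 5 to 638, from 1346 to 4057 and from 185 to 1595, in the order just given. Fitted alone, PH against sham gave 6, 5 and 5 at 0.5, 1 and 2 h, and sham against 0 h gave 4 at 2 h. A spike-in covariate gave 0 for PH against sham at 0.5 h and 2 for sham against 0 h at 2 h. Centring the arrays and leaving out the dimmest 25% each gave 1 for PH against 0 h at 2 h, and 1 probe set per gene gave 0 for PH and for sham against 0 h at 4 h. Without single arrays these counts ran from 0 to 1, or from 0 to 2 for sham against 0 h at 4 h, and stayed 0 in PH against 0 h at 0.5, 1 and 2 h and in sham against 0 h at 0.5 h. Since the whole table moved as well, the moves are not a result about the members, and their cause was not tested.

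Of the B lineage genes 16 passed between old and young over all conditions. The count was 6 with cross-hybridisation suffixes left out, where fewer genes are tested, and 8 to 17 without single arrays; it was 8 without old sham 1 h replicate 2 or old sham 2 h replicate 1. At 0 h it was 0, and 2 with array weights. Igkv6-23, Igkv1-133, Igkv6-14, Igkv10-96, Igkv4-59, Igkv8-19 and Blnk passed without any single array, while Cd72 was lost in 33 of 46 such fits, Spib in 30, Igkv4-70 in 23, Cr2 in 21, Spi1 in 20, Igkv4-68 in 12, Ighv1-54 in 5, Sec11c in 4 and Igkv4-91 in 3. Leaving out old PH 2 h replicate 3 and old PH 4 h replicate 3 together, and leaving out single arrays for Igha, Pou2af1 and Igkv6-23 over the PH or sham times and for Ighm and Jchain in old liver, was chosen after seeing the data. Pou2af1 over the PH times passed without any single array and in the other alternatives run (adjusted p up to 0.0468).

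Replicate numbers did not pair the arrays: the mean correlation of same-numbered deviations was 0.006 against -0.00287 for other numbers. With the replicate block the B lineage count was 15 and the PH against sham count 6, and Jchain in young PH against young sham over all times turned from 0.17 to -0.049, not called in either fit. The signal of dim probe sets limits what small differences can show.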

Other observations

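Probe sets annotated with several symbols were not used for any gene above. Of these, 12 carried immunoglobulin symbols only. Over all conditions 6 of the 12 were higher in old liver by limma and none lower, where 5.02% of all probe sets were higher and 3.90% lower. Their median old minus young difference was 0.399, with a range from -0.061 to 2.85. In 11 of the 12 the highest array was old PH 4 h replicate 3, the array highest in the lead Ighm probe set and in Jchain. Among the 25 other immunoglobulin genes with 1 symbol, 13 had that array as the highest of the old ones. High immunoglobulin values in old arrays were the reason for the choice of genes, so these counts are no independent support.

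Old PH 1 h replicate 3 had the highest Xbp1 of all arrays at 10.73 and the highest Sdc1 at 8.65, with Cd5l, a macrophage gene, at 9.46 and the lowest Pigr of the 46 at 11.14. In that array Igha read 8.27 and Ighm 9.43.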
